A study of Mus musculus with 15 samples.

Results

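The class II presentation genes of the major histocompatibility complex (MHC) were read in whole mouse skin over a wounding time course. Of the 30281 named genes in each library, 7 were taken by their symbols: H2-Aa, H2-Ab1, H2-Eb1, H2-DMa, H2-DMb1, Cd74 and Ciita. All 7 were found in the 15 libraries, and all 7 were among the 17136 genes that passed the filter on low counts. The labels describe C57BL/6 mice, a single skin source with muscle and fat removed, and 5 times of 3 libraries each, at day 0, 1, 3, 5 and 7. Every library carries the wound stress label, day 0 included, so the earliest group is called day 0 and not unwounded skin. Age, sex, wound size and the number of mice behind the libraries are not given in the labels, no gene was altered by design, and no treatment beyond the wound is named. Whether the 3 libraries of a group are 3 mice is not stated either, and p-values here cover the spread among these libraries alone, which could be technical.

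MHC class II molecules show peptides from taken-up material to CD4+ T cells. Dendritic cells, Langerhans cells of the epidermis, macrophages and B cells are the cells best known for making them. The alpha and beta chains pair in the endoplasmic reticulum around the invariant chain, which blocks the groove and sorts the complex to endosomes, where the chain is cut down to a last fragment and H2-DM exchanges that fragment for a peptide. Transcription of the whole set runs through the coactivator encoded by Ciita, which binds no DNA itself and docks on factors that sit on short boxes of the class II promoters, called X and Y. In mice of the C57BL/6 MHC type the gene of the E alpha chain is broken, so that the E beta chain encoded by H2-Eb1 lacks its usual partner at the cell surface. The row H2-Ea-ps, which carries the name of that broken gene, held 0 to 2 counts in each of the 15 libraries.

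Promoter stretches are shown here because Ciita's product is known to act through their boxes. No value below tests a link between these letters and the levels. RefSeq windows of the mouse build GRCm38.p6, reaching 250 bases upstream of the annotated start, were at hand for H2-Aa, H2-Eb1, H2-DMb1 and, with 2 starts, H2-DMa. The X box of class II promoters lies upstream of the Y box, and RFX, CREB and NF-Y bind across them. The longest run of letters common to the H2-Eb1 and H2-DMb1 windows was AACTGATGATGCT, which falls in that upstream region. Both strands of all windows were searched for this run, for TGACGTCA, the cyclic AMP response element, and for ATTGG, the core of a Y box, none of which overlapped another in the stretches shown. Capitals mark the shared run, or in H2-Aa the cyclic AMP response element, on the left and the nearest Y box core on the right. Each stretch runs 5′ to 3′ on the gene's own strand, all on chromosome 17.
H2-Aa, chr17:34287852-34287922, minus strand: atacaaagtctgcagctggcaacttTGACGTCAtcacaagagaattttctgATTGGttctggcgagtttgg
H2-Eb1, chr17:34305753-34305827, plus strand: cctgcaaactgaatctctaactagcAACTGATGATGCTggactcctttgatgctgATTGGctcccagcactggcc
H2-DMb1, chr17:34153074-34153149, plus strand: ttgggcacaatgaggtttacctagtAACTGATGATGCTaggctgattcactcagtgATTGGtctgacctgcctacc
The marked pairs stood 18 bases apart in H2-Aa, 17 in H2-Eb1 and 18 in H2-DMb1. The shared run began 89 bases upstream of the start in H2-Eb1 and 92 bases upstream in H2-DMb1, and the cyclic AMP response element began 74 bases upstream in H2-Aa. Of the 32851 promoter windows of the same length, 2 held the shared run, which was taken from those same genes, 1.55% held the cyclic AMP response element and 33.8% the Y box core. Neither H2-DMa window held the run or the cyclic AMP response element, and 1 of them held a Y box core. A match of letters describes these windows only.

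Some libraries stood apart from the rest of their group, and the results are given with that in view. Day 5 replicate 2 and day 7 replicate 3 were rich in hair keratins, with 1.98% and 2.74% of their counts, while no other library exceeded 0.172%. In day 0 replicates 2 and 3, Eno1b stood at 123 and 150 CPM, the count scaled to library size, and Skint3 at 0.278 and 0.218 CPM, whereas the 13 other libraries had Eno1b at 0.294 CPM or less and Skint3 at 38.5 CPM or more. The MHC class I-like gene H2-T10 split the same way, at 34.0 and 36.0 CPM in day 0 replicates 2 and 3 against 9.12 CPM in day 0 replicate 1. Day 0 replicate 1 in turn had the most Krt6a (708 CPM) and Il1b (86.1 CPM) of the day 0 libraries. The mitochondrial share of counts lay between 5.29% and 6.30% on day 0, between 6.98% and 7.53% on day 1, between 5.34% and 6.30% on day 3, between 7.42% and 8.70% on day 5, and between 8.09% and 9.44% on day 7. The part of these differences in the results below was not tested.

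Library totals ran from 38062562 to 60450396 estimated counts, so counting error was small beside the spread between libraries, and the 7 genes together held 0.109% to 0.501% of the counts. Levels below are CPM with library sizes scaled by edgeR's TMM factors, and are not set against each other between genes, since no transcript lengths were used. Tests are contrasts of edgeR's quasi-likelihood model over all 15 libraries, two-sided, with Benjamini-Hochberg adjustment across the 17136 genes tested. A gene is called higher or lower where that adjusted p is under 0.05, and the error of a log2 difference is its standard error.

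All 7 genes had their highest mean at day 0 and their lowest at day 1. Each was highest of all libraries in day 0 replicate 3. The day 1 libraries lay below every day 0 library for 7 of 7 genes, against 18.0% of all genes tested, and 4 of 7 were called lower at day 1 than at day 0 by edgeR, against 3.36% of all genes called lower and 7.58% called in either direction. From day 3 on, the means of the 7 lay between those of day 1 and day 0, and none of the 7 was called against day 0. In whole skin, fewer cells that carry a transcript and less of it per cell cannot be told apart.

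**Figure D1:**
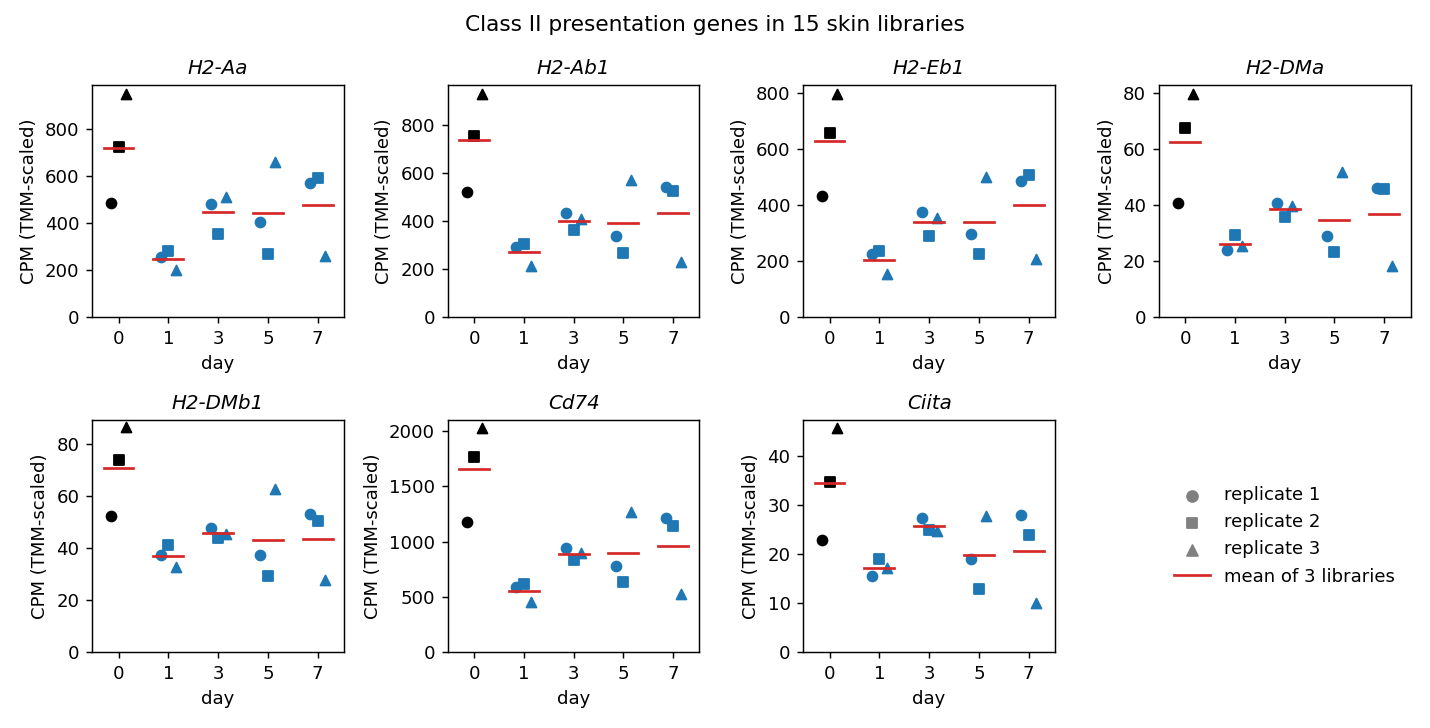
TMM-scaled CPM (vertical axis, linear from 0, own scale per gene) of the 7 class II presentation genes by day (horizontal axis); black marks are day 0 and blue marks later days, circles, squares and triangles are replicates 1, 2 and 3, and red bars are means of 3 libraries. Day 0 replicate 3 is the highest library and day 1 holds the lowest mean for all 7 genes, while day 5 and day 7 spread widely.

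The peptide-binding chains come first. H2-Aa encodes the alpha chain of the A molecule, and its CPM was 486, 722 and 950 in day 0 replicates 1, 2 and 3. At day 1 the 3 libraries read 257, 283 and 203 CPM, all below day 0. The difference was -1.54 ± 0.37 on the log2 scale, about 2.90-fold lower (edgeR adjusted p = 0.029). At day 3 the libraries read 481, 352 and 511 CPM, at day 5 406, 271 and 659 CPM, and at day 7 570, 594 and 262 CPM. These later libraries overlapped those of day 0, and the widest spread within a time after day 0 was at day 5.

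H2-Ab1 encodes the beta chain that pairs with the product of H2-Aa. It read 523, 755 and 932 CPM at day 0 and 292, 306 and 214 CPM at day 1. It was 1.44 ± 0.34 log2 units lower at day 1, or 2.72-fold (edgeR adjusted p = 0.028). In the later libraries it stood at 437, 363 and 409 CPM at day 3, 340, 268 and 574 CPM at day 5, and 545, 528 and 232 CPM at day 7. All 3 day 3 libraries were below all 3 of day 0, which was not so for H2-Aa.

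H2-Eb1, the E beta chain gene without a partner in this MHC type, was transcribed all the same. It read 431, 658 and 797 CPM at day 0 and 226, 237 and 155 CPM at day 1. The difference of -1.61 ± 0.36 on the log2 scale (3.05-fold lower, edgeR adjusted p = 0.024) was the largest of the 7. Day 3 gave 377, 290 and 356 CPM, day 5 298, 226 and 501 CPM, and day 7 486, 509 and 210 CPM. Its day 3 libraries lay above all of day 1 and below all of day 0, while those of day 5 and day 7 overlapped both.

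Cd74 encodes the invariant chain, which also serves as a surface receptor of the cytokine MIF. Its CPM was 1175, 1764 and 2022 at day 0 and 586, 616 and 454 at day 1. It was 1.58 ± 0.33 log2 units lower at day 1 (2.99-fold, edgeR adjusted p = 0.018), the smallest adjusted p of the 7. Later libraries held 942, 830 and 897 CPM at day 3, 778, 631 and 1269 CPM at day 5, and 1214, 1139 and 528 CPM at day 7. Day 3 was tight and lay between day 1 and day 0 without touching either, whereas day 5 and day 7 overlapped day 0.

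H2-DMa and H2-DMb1 encode chains of H2-DM, the peptide exchange factor of the endosome. H2-DMa read 40.6, 67.4 and 79.7 CPM at day 0 and 23.9, 29.3 and 25.5 CPM at day 1. Its difference of -1.254 ± 0.359 on the log2 scale was not called (edgeR adjusted p = 0.052). Day 3 held 40.6, 35.8 and 39.8 CPM, day 5 28.9, 23.5 and 51.8 CPM, and day 7 46.2, 45.7 and 18.4 CPM. Day 1 lay apart from day 0, day 3 lay just under it, and day 5 and day 7 overlapped day 0 through 1 and 2 libraries above its lowest.

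H2-DMb1 has a close copy, H2-DMb2, and estimated counts can be shared between them, so its values are uncertain to that extent. It read 52.3, 74.0 and 86.6 CPM at day 0 and 37.5, 41.3 and 32.7 CPM at day 1, a difference of -0.93 ± 0.29 on the log2 scale that was not called (edgeR adjusted p = 0.062). Day 3 gave 47.9, 44.0 and 45.4 CPM, day 5 37.5, 29.5 and 62.9 CPM, and day 7 53.0, 50.4 and 27.9 CPM. All day 3 libraries fell between the highest of day 1 and the lowest of day 0. H2-DMb2 itself had a mean of 6.30 ± 0.754 CPM (SD, n = 3) at day 0 and 4.18 ± 0.881 CPM at day 1, and was not called.

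Ciita, the transactivator gene, read 22.9, 34.9 and 45.7 CPM at day 0 and 15.5, 19.1 and 17.2 CPM at day 1. The day 1 libraries were all below those of day 0, with a log2 difference of -0.997 ± 0.354 that was not called (edgeR adjusted p = 0.098). Day 3 held 27.5, 25.0 and 24.8 CPM, day 5 19.0, 12.8 and 27.8 CPM, and day 7 28.0, 23.9 and 10.2 CPM. At day 3 it overlapped day 0 and lay clear above day 1. Its day 7 replicate 3 was the lowest of its 15 libraries, below all of day 1.

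The order of the 5 times was alike among the 7 genes only at its ends. Day 7 came second by mean for H2-Aa, H2-Ab1, H2-Eb1 and Cd74, and day 3 came second for H2-DMa, H2-DMb1 and Ciita. Most neighbours in these orders overlapped. The exceptions were day 0 over day 3 for H2-DMa and H2-DMb1, and day 3 over day 1 for H2-Eb1 and Cd74. For the genes other than Ciita the means of day 3, day 5 and day 7 stood close together. For Cd74 they were 890 ± 56.1, 893 ± 334 and 961 ± 376 CPM (SD, n = 3 each), against 1654 ± 434 at day 0 and 552 ± 86.6 at day 1. For Ciita they were 25.7 ± 1.52, 19.9 ± 7.50 and 20.7 ± 9.35 CPM, against 34.5 ± 11.4 at day 0 and 17.3 ± 1.81 at day 1.

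The fall from day 0 to day 1 thus passed the test for H2-Aa, H2-Ab1, H2-Eb1 and Cd74, and the median log2 difference of the 7 was -1.44, beside -0.01 over all genes tested. The 3 that did not pass had the same sign and differences between -0.93 (H2-DMb1) and -1.254 (H2-DMa). None of the 7 was called without day 0 replicate 2 or 3, where 0.19% and 0.815% of all genes were, or without day 1 replicate 1, 2 or 3, where 0.786%, 1.79% and 2.44% were. All 7 were called without day 7 replicate 3 (14.4% of all genes) and without day 0 replicate 1 (13.8%). The latter refit leaves only day 0 replicates 2 and 3, set apart above by Eno1b and Skint3. Over these refits the log2 differences of the 7 stayed between -0.75 and -1.82. When day 0 was reduced to its replicate 1, a refit chosen after seeing the data, the 7 differences were -0.39 to -1.08. That refit assumes that the lone library varies like the other groups, and it called 0 of 17852 genes, so its lack of calls says nothing about the 7. DESeq2 called all 7 and 16.7% of all genes. Without the pair of hair-rich libraries edgeR called all 7 and 20.5% of all genes, with differences of -0.93 to -1.61.

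**Figure D2:**
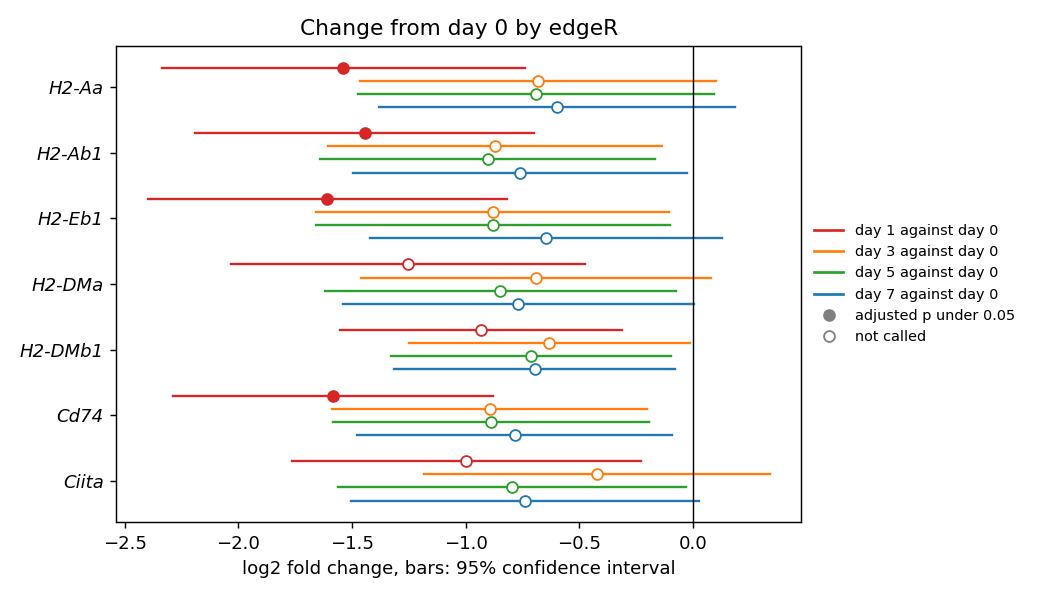
Log2 fold change (horizontal axis) of each gene at day 1, 3, 5 and 7 against day 0 by edgeR, with bars of the 95% confidence interval; filled points have an adjusted p under 0.05 and open points do not. Filled points are found only at day 1, for H2-Aa, H2-Ab1, H2-Eb1 and Cd74, and all points lie left of 0. The 4 comparisons share the 3 day 0 libraries.

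At day 3 none of the 7 differed from day 0 by the test, against 0.788% of all genes called. The differences ran from -0.42 for Ciita to -0.89 for Cd74, all negative, 4 of 7 had an unadjusted p under 0.05, and DESeq2 called none. The day 3 libraries lay wholly below those of day 0 for 5 of 7 genes, against 12.4% of all genes, the exceptions being H2-Aa and Ciita. Without the hair-rich libraries 1 gene, Cd74, was called lower at day 3, where 4.03% of all genes were called. For Ciita the sign turned when day 0 was reduced to replicate 1, to a log2 difference of 0.18.

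At day 5 none of the 7 was called against day 0, where 0.502% of all genes were. Their log2 differences lay within a narrow range, from -0.69 for H2-Aa to -0.90 for H2-Ab1, 6 of 7 had an unadjusted p under 0.05, and DESeq2 called none. The groups were apart for none of the 7, against 13.8% of all genes wholly below day 0, and day 5 replicate 3 reached into day 0 for each gene. Day 5 replicate 2, a hair-rich library, was the lowest of its time for all 7. Both day 0 and day 5 were spread, with standard deviations for H2-Ab1 of 205 and 160 CPM around means of 737 and 394 CPM.

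At day 7 none of the 7 was called against day 0, although 7.05% of all genes were. The log2 differences ran from -0.60 for H2-Aa to -0.78 for Cd74, 3 of 7 had an unadjusted p under 0.05, and DESeq2 called none. The groups were apart for none of the 7, against 15.3% of all genes wholly below day 0. Day 7 replicates 1 and 2 lay above the lowest day 0 library for several genes, such as H2-Aa, while replicate 3, the other hair-rich library, was the lowest of the time for all 7. All 4 comparisons with day 0 share its 3 libraries, so that their values are not independent of each other.

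Between day 1 and day 3 the 7 genes were not called (0.00584% of all genes were), yet the day 3 libraries lay above every day 1 library for 7 of 7, against 11.6% of all genes in that direction. The log2 differences ran from 0.30 for H2-DMb1 to 0.86 for H2-Aa, with 1 of 7 at an unadjusted p under 0.05 and none called by DESeq2. For Cd74 the difference was 0.69 ± 0.32 (edgeR adjusted p = 0.393). From day 3 to day 5 the differences lay between -0.37 and 0.00, with 0.0233% of all genes called, and from day 5 to day 7 between 0.02 and 0.23, with 0.00584% called. None of the 7 was called in either, none had an unadjusted p under 0.05, and DESeq2 called none.

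Day 7 against day 1 called 14.3% of all genes and none of the 7. The log2 differences were 0.24 for H2-DMb1 to 0.96 for H2-Eb1, and H2-Aa, H2-Eb1 and Cd74 had an unadjusted p under 0.05, with adjusted p from 0.0909 to 0.113. Leaving out day 7 replicate 3 raised the count to 4, namely H2-Aa, H2-Ab1, H2-Eb1 and Cd74, whose differences were then 1.00 to 1.29, with 13.4% of all genes called. DESeq2 called 2 of the 7 and 21.8% of all genes. For Ciita, the difference of 0.26 became -0.025 without day 7 replicate 1.

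Set against the mean of the 4 later times, day 0 was higher for Cd74 by 1.04 ± 0.23 log2 units (edgeR adjusted p = 0.036) and for H2-Ab1 by 0.99 ± 0.25 (adjusted p = 0.049). These 2 of 7 stand beside 2.23% of all genes called lower after day 0. The other 5 had adjusted p from 0.0549 to 0.118. In the test of any difference over the 5 times only Cd74 was called (adjusted p = 0.041), where 13.9% of all genes were. Without day 0 replicate 2 or day 0 replicate 3, none of the 7 passed the comparison of the later times with day 0 (0.132% and 0.253% of all genes did), and the smallest adjusted p was 0.193. Of the 15 refits that left out 1 library each, Cd74 was called in 7 and H2-Ab1 in 5 against day 0, and Cd74 in 5 over all times.

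Library by library, the 7 moved together. Each gene was centred on its own mean of log2 CPM over the 15 libraries. The distance of each gene from the mean of the 6 others, as a root mean square over the libraries, was 0.08 log2 units for H2-Ab1, 0.11 for H2-DMa, 0.12 for Cd74, 0.16 for H2-Eb1, 0.17 for H2-Aa, 0.19 for H2-DMb1 and 0.23 for Ciita. Over the same libraries the mean profile itself had a spread of 0.56. Values of 15 libraries over 5 times are not independent points, so these are descriptions. Such nearness was not particular to the 7: Kbtbd11 and Cd34, ranked below, each lay 0.17 from the mean of the 7. The shared profile included differences between replicates: day 0 replicate 1 was the lowest of its time for all 7, day 5 replicate 2 for all 7 and day 7 replicate 3 for all 7.

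**Figure D3:**
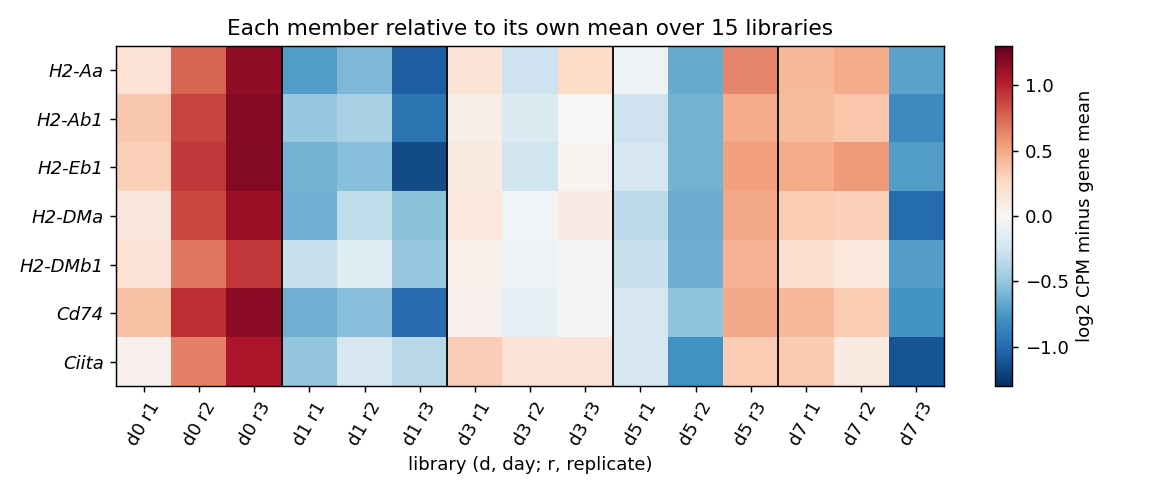
Heat map of log2 CPM minus the gene's mean over the 15 libraries (colour scale, red above and blue below the mean), with the 7 genes in rows and the libraries in columns by day (d) and replicate (r). Columns are nearly uniform in colour, with day 0 replicate 3 the darkest red for all 7 and day 1 replicate 3 or day 7 replicate 3 the darkest blue of each row.

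Ciita was the gene farthest from the others. Its log2 CPM minus the mean log2 CPM of the 6 others was -3.42 ± 0.07 at day 0, -3.01 ± 0.23 at day 1, -3.05 ± 0.11 at day 3, -3.38 ± 0.11 at day 5 and -3.47 ± 0.15 at day 7 (SD, n = 3 each). At day 1 the 3 libraries read -3.21, -3.04 and -2.77, and at day 3 -3.06, -2.94 and -3.17, all above the day 0 range of -3.48 to -3.34. At day 5 and day 7 the libraries overlapped day 0. The difference from day 0 was 0.42 at day 1 and 0.37 at day 3, and it stayed at 0.30 to 0.52 and 0.31 to 0.43 when any 1 library was left out. No test was made of this score over the genes.

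Accessory genes of the class II pathway were followed as a list of 12, all tested. The counts in this list and those that follow stand beside these shares of all genes. By edgeR 3.36% of all genes were lower and 4.22% higher at day 1, and 0.193% and 0.595% at day 3. At day 5 these shares were 0.292% and 0.210%, and at day 7 3.94% and 3.10%. Many more genes had an unadjusted p under 0.05 than were called, so counts at that p do not stand beside these shares. DESeq2 called 16.7% at day 1 and 5.81% at day 3 in either direction, and edgeR without the hair-rich libraries 20.5% and 4.03%. The shares of these fits at day 5 and day 7 are not given. Their counts at those times are therefore not to be set beside the edgeR shares. At day 1, 1 of the 12 rose and none fell, with a median log2 difference of -0.40 beside -0.01 for all genes. Without the hair-rich libraries 2 rose and 4 fell, and by DESeq2 1 rose and 2 fell. The riser was Lgmn, the endosomal protease legumain, at 399 ± 35.1 CPM at day 0 and 670 ± 84 CPM at day 1 (log2 difference 0.75 ± 0.20, edgeR adjusted p = 0.040). At day 7, 1 of 12 fell, Cd40, the costimulatory receptor of antigen-presenting cells, from 17.1 ± 3.65 to 5.94 ± 0.839 CPM (-1.53 ± 0.26, adjusted p = 0.010). None of the 12 was called by edgeR at day 3 or day 5, with 2 at an unadjusted p under 0.05 at each, and DESeq2 called 1 higher at day 3 and 1 lower at day 5. Ctss, the protease that trims the invariant chain, read 489 ± 181 CPM at day 0 and 422 ± 85.9 CPM at day 1 (-0.21 ± 0.30, not called), and H2-Ob, a chain of the H2-DM inhibitor H2-O, 4.45 ± 0.688 and 1.78 ± 0.292 CPM (-1.32 ± 0.38, adjusted p = 0.053), both named after their values were seen.

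The factors that hold Ciita's product on the promoter formed a list of 7: the RFX subunits, the NF-Y subunits and Creb1. At day 1, 1 of 7 rose, Nfyb, a subunit of the Y box factor NF-Y, from 23.8 ± 3.2 to 33.6 ± 6.23 CPM (0.50 ± 0.13, edgeR adjusted p = 0.040). By DESeq2, and by edgeR without the hair-rich libraries, 2 others fell. None of the 7 was called by edgeR at day 3, 5 or 7 against day 0, with 0, 0 and 4 at an unadjusted p under 0.05, and DESeq2 called 2 higher at day 7. The list's medians over the 4 comparisons lay between -0.10 and 0.16.

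Interferon-gamma is the classical inducer of Ciita outside the cells that make it constantly, through its receptor, the kinases Jak1 and Jak2, and Irf1. The list of 13 genes read here also held factors that are not among these steps, such as Irf4 and Spi1. Of the 13, 1 rose and 1 fell at day 1. None was called by edgeR at day 3 or day 5, with 3 and 5 at an unadjusted p under 0.05 and 1 lower at day 5 by DESeq2. At day 7, 2 fell, or 5 by DESeq2 and 1 without the hair-rich libraries. The genes called lower by edgeR over all 15 libraries were Irf4 and Spi1, neither of them among the steps named. Jak2 rose at day 1 from 72.3 ± 6.33 to 116 ± 11.3 CPM (0.68 ± 0.12, edgeR adjusted p = 0.011). Irf4, a factor of dendritic cells, B cells and T cells, fell from 37.9 ± 4.66 to 9.69 ± 0.785 CPM (-1.97 ± 0.38, adjusted p = 0.016), and at day 7 stood at 14.0 ± 6.87 CPM (-1.43 ± 0.37, adjusted p = 0.040). Spi1, the myeloid and B cell factor PU.1, fell at day 7 from 86.2 ± 7.84 to 48.0 ± 7.93 CPM (-0.84 ± 0.18, adjusted p = 0.019). Ifng itself had means of 0.0993 to 0.327 CPM over the 5 times, with no count in at least 1 library, and is named after its values were seen.

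The class I route, which presents peptides from inside the cell, was read beside class II in a list of 11. At day 1 none of the 11 was called by edgeR, 1 had an unadjusted p under 0.05 and DESeq2 called none, while 3 fell in the edgeR fit without the hair-rich libraries. H2-K1, a class I heavy chain with the smallest p, stood at -0.48 ± 0.21 on the log2 scale. By edgeR none was called at day 3 or day 5, with 0 and 6 at an unadjusted p under 0.05, and DESeq2 called 1 lower at day 5. At day 7, 6 of 11 fell, against 3.94% of all genes, with a median of -0.74 beside 0.02 over all genes. The 6 were Psmb10, Psmb8 and Psmb9, subunits of the immunoproteasome, the peptide transporter genes Tap1 and Tap2, and Nlrc5, the class I transactivator, of which Psmb8, Psmb9 and Nlrc5 are named after their values were seen. By DESeq2 9 of the 11 fell, a count with no DESeq2 share of all genes beside it. Psmb10 went from 53.6 ± 7.32 to 28.5 ± 3.23 CPM (-0.91 ± 0.16, adjusted p = 0.011) and Tap1 from 101 ± 20.7 to 51.1 ± 10.04 CPM (-0.98 ± 0.20, adjusted p = 0.019). Whether the class II and class I genes differ in their change was not tested.

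General leukocyte genes were read beside these lists. Of 5 genes found in nearly all leukocytes (Ptprc, Cd53, Laptm5, Coro1a and Cd52), Cd53 rose at day 1 (0.63 ± 0.17, edgeR adjusted p = 0.044) and Coro1a fell at day 7 (-0.90 ± 0.22, adjusted p = 0.031). By DESeq2 4 of 5 fell at day 7. Their sum lay between 702 and 928 CPM on day 0, between 898 and 1009 on day 1, between 832 and 1024 on day 3, between 363 and 640 on day 5, and between 363 and 573 on day 7. The mean log2 CPM of the 7 class II genes minus that of the 5 leukocyte genes was 0.89 ± 0.37 at day 0, -0.75 ± 0.29 at day 1, 0.02 ± 0.33 at day 3, 0.63 ± 0.28 at day 5 and 0.79 ± 0.40 at day 7 (SD, n = 3 each). The day 1 libraries, at -0.64, -0.53 and -1.08, and those of day 3, at 0.28, -0.34 and 0.13, all lay below the lowest of day 0, at 0.47. Those of day 5 and day 7 overlapped day 0. With Ptprc alone as the reference the differences from day 0 were -1.64 at day 1 and -0.75 at day 3.

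**Figure D4:**
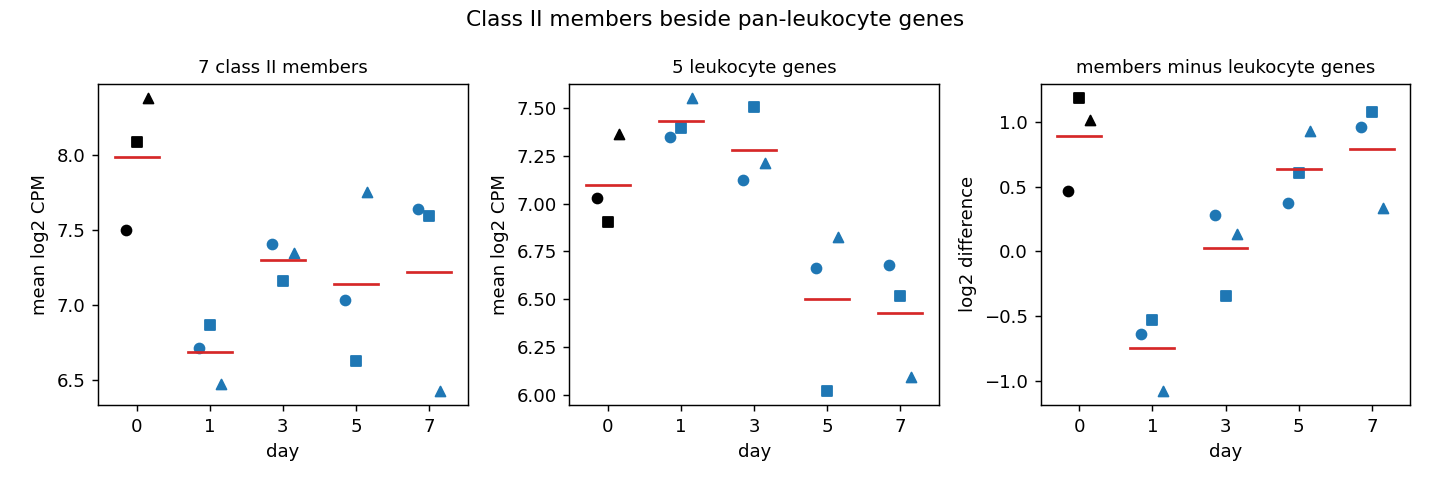
Mean log2 CPM by day of the 7 class II genes (left), of 5 leukocyte genes (middle), and the difference between them (right); black marks are day 0, blue marks later days, circles, squares and triangles replicates 1, 2 and 3, and red bars means of 3 libraries. The class II genes are lowest at day 1 while the leukocyte genes have their highest mean there, and the difference climbs from -0.75 at day 1 to 0.79 at day 7.

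Markers of the cells that carry class II were read beside these values. Of 12 dendritic and Langerhans cell markers, none was called by edgeR at day 1, 3, 5 or 7 against day 0, with 6, 2, 5 and 3 at an unadjusted p under 0.05, and their median log2 difference at day 1 was -0.77. At day 1, 3 of 12 fell by DESeq2 and in the edgeR fit without the hair-rich libraries. Their sum lay between 428 and 580 CPM on day 0, between 211 and 305 on day 1, between 228 and 351 on day 3, between 270 and 408 on day 5, and between 220 and 400 on day 7. Clec10a, Mgl2 and Epcam weigh most in this sum, reaching 259, 150 and 137 CPM in their highest library. No other marker of the list exceeded 55.5 CPM. Mgl2 and Epcam are named after their values were seen. The smallest p at day 1 was that of Clec10a, a lectin of dermal dendritic cells and macrophages, at 202 ± 78.3 CPM at day 0 and 75.6 ± 11.3 CPM at day 1 (-1.42 ± 0.42, edgeR adjusted p = 0.059). Cd207, the langerin of Langerhans cells, read 13.4 ± 2.05 and 6.31 ± 2.24 CPM (-1.09 ± 0.48, not called), and is named after its values were seen. Every marker of this list was above 1 CPM in every library.

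Among B cell markers, 2 of the 6 tested fell at day 1, where 3.36% of all genes were called lower. Ighm, the IgM heavy chain, went from 150 ± 47.9 to 39.3 ± 20.1 CPM (-1.93 ± 0.37, edgeR adjusted p = 0.016). Cd79b went from 2.92 ± 1.27 to 1.17 ± 0.388 CPM (-1.32 ± 0.33, edgeR adjusted p = 0.035). The defining markers Ms4a1 and Cd79a had means of at most 0.560 CPM at every time, and Pax5 did not pass the filter. The sum of the list lay between 99.3 and 188 CPM on day 0 and between 26.8 and 68.3 CPM on day 1. Of 7 T and NK cell markers, 4 fell at day 1 (Cd3d, Nkg7, Cd2 and Cd3e, by 1.37 to 1.89 log2 units), with sums between 30.9 and 65.0 CPM on day 0 and between 18.0 and 21.0 CPM on day 1.

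Of 7 markers of resident dermal macrophages, 4 fell at day 1 (Cd209g, Timd4, Folr2 and Cd209f), 2 at day 3, 3 at day 5 and 7 at day 7. Of all genes, edgeR called 3.36%, 0.193%, 0.292% and 3.94% lower at these times. At day 1 the list was split by DESeq2 and without the hair-rich libraries, with 1 marker higher and 4 lower in each. By DESeq2 4 of these markers fell at day 3 and 5 at day 5. Their sum lay between 1099 and 1155 CPM on day 0, between 1144 and 1180 on day 1, and between 285 and 544 on day 7. Mrc1, named after its values were seen, read 529 ± 16.6 CPM at day 0 and 697 ± 29.4 CPM at day 1 (0.40 ± 0.23, not called). Of 8 general macrophage markers none was called by edgeR at day 1, 3 or 5 (4, 1 and 6 at an unadjusted p under 0.05, and 2, 0 and 1 lower by DESeq2), and 5 fell at day 7, or 7 by DESeq2 and 2 without the hair-rich libraries. Their sum lay between 1774 and 2849 CPM on day 0, between 1487 and 2054 on day 1, and between 1084 and 1554 on day 7. All 6 neutrophil markers rose at day 1, where 4.22% of all genes were called higher, from a sum of 58.0 to 201 CPM to one of 807 to 1274 CPM. At day 1, 1 of 5 monocyte markers, Chil3, rose with them (3.17 ± 0.79, edgeR adjusted p = 0.036). None of the 5 was called by edgeR at day 3 or day 5, with 1 and 4 at an unadjusted p under 0.05. At day 7, 3 of the 5 fell (Ly6c2, Plac8 and Ccr2). By DESeq2 3 fell at day 5 and 4 at day 7. The part of these cell types in the class II values was not tested.

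The labelled tissue was checked on its structural cells. Keratinocyte markers summed to between 3980 and 6976 CPM on day 0 and between 5442 and 11893 on day 1. Fibroblast markers summed to between 37961 and 44537 CPM on day 0 and between 12664 and 31551 on day 1. Of the 4 keratinocyte, 4 fibroblast and 3 endothelial markers, Pdgfra rose at day 1 (1.28 ± 0.20, edgeR adjusted p = 0.009) and Krt14 at day 3 (1.87 ± 0.38, adjusted p = 0.046). No other was called by edgeR against day 0 over all 15 libraries. DESeq2 called several more, such as 2 keratinocyte markers higher at day 1 and 2 endothelial markers higher at day 3. Of the 4 fibroblast markers, 1 rose and 1 fell at day 1 by DESeq2 and without the hair-rich libraries. Their median log2 difference at day 1 was -0.53 by edgeR, against the direction of Pdgfra.

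The genes whose profile over the 15 libraries came closest to the mean of the 7 were ranked among 12445 other genes with a mean of at least 5 CPM, by the root mean square difference of centred log2 CPM. The nearest 10 were Kbtbd11 (0.17), Cd34 (0.17), Timp2 (0.19), Cpq (0.19), Rgag4 (0.21), Foxred2 (0.22), Marveld1 (0.23), Rilp (0.23), Tppp3 (0.23) and Camk2b (0.24). A gene that did not move at all would have scored 0.56, and the median gene scored 0.61. The nearest, Kbtbd11, had means of 42.0, 16.2, 25.1, 23.1 and 22.8 CPM at day 0, 1, 3, 5 and 7, and Cd34, a surface protein of endothelium, progenitor cells and some fibroblasts, 669, 267, 375, 357 and 414 CPM. Of the genes in the lists above, Cd86, a costimulatory ligand of antigen-presenting cells, came nearest at rank 72 (0.31). It was followed by Clec10a at rank 109 (0.33) and the fibroblast marker Col1a1 at rank 151 (0.34). The class I gene H2-K1 stood at rank 262 (0.37) and the fibroblast marker Col1a2 at rank 321 (0.38). All of these are named after their ranks were seen. When the minimum was lowered to a mean of 1 CPM, 5 of the nearest 10 were shared.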

How the data were processed

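RNA from mouse skin at 5 times, 3 libraries each, was sequenced after poly(A)-type library preparation, per the labels. The authors deposited estimated counts per gene symbol. Per the submitters' processing notes they used kallisto 0.43. Not given in the sources used here were the index, annotation, build and use of strand. Of 30307 rows per file, 26 with calendar dates in place of symbols (0.155% to 0.179% of counts) were left out. The deposited estimated counts were whole numbers and rounding left them as they were. Analysis used edgeR 4.0.16 in R 4.3.3 (expression filter with a minimum count of 10, TMM, robust quasi-likelihood), over all 15 libraries, with 9 contrasts and an F test over all times. The common biological coefficient of variation was 30.9%. No replicate pair agreed within sampling noise (lowest chi-square per degree of freedom 34.3). The fit was tested on simulated data.

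The 7 genes, the 4 pathway lists and the 11 marker lists were chosen with earlier results of these data known. Named from each list were up to 3 genes called, by smallest p, or the 1 or 2 with the smallest p, and defining markers; genes outside that rule are named as such. Some genes of these lists are not reported here by name. Similar genes were ranked on log2(CPM + 0.01); scores over several genes used log2 CPM with nothing added. Alternatives were the DESeq2 1.42.0 test, its type of size factors, no filter, the libraries of the compared times alone, a replicate block, each library left out, and the hair-rich libraries left out. One more was chosen after seeing the data. Replicate numbers were not taken to pair libraries across times.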

Additional observations from a re-analysis of the deposited data

How the results depend on the processing

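Directions of the 7 genes against day 0 held in all refits except 1, Ciita at day 3 when day 0 was reduced to replicate 1 (0.18 in place of -0.42). Ciita at day 7 against day 1 (0.26) ran from -0.025, without day 7 replicate 1, to 0.60 with 1 library left out. Counts of the 7 called moved more. By DESeq2 they were 7 at day 1 against day 0 (16.7% of all genes), 2 at day 7 against day 1 (21.8%), 6 for days 1 to 7 against day 0 (12.4%) and 6 over all times (34.5%). Without the hair-rich libraries they were 7 at day 1 (20.5%) and 1 at day 3 against day 0 (4.03%), 4 at day 7 against day 1 (19.6%), 6 for days 1 to 7 (8.43%) and 6 over all times (22.1%). With replicate 1 alone for day 0 they were 0, but so were the calls over all genes at day 1, day 3 and days 1 to 7 against day 0. With no filter, days 1 to 7 against day 0 called 1 (2.17%). With any 1 library left out, the counts ran from 0 to 7 at day 1 against day 0, 0 to 4 at day 7 against day 1, 0 to 6 for days 1 to 7 and 0 to 5 over all times. The other comparisons called 0 in each of those refits. At day 1 against day 0 the share of all genes called moved as well. It ran from 0.19%, without day 0 replicate 2, to 14.4%, without day 7 replicate 3. Fewer libraries leave fewer degrees of freedom, and the cause of the other shifts was not tested.

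Replicate numbers are shared between times in the labels, but of 30 same-number pairs 14 had a correlation of deviations over 0.1 (range -0.82 to 0.56), so they were not taken as paired. With the replicate block, 2 of 7 were called at day 1 against day 0 (H2-Eb1 and Cd74), where 5.03% of all genes were. That share was 7.58% without the block. For days 1 to 7 and over all times the block called 0 of the 7, and the shares of all genes there are not given.

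Differences from day 3 to day 5 and from day 5 to day 7 lay near 0, the farthest being that of Ciita from day 3 to day 5 (-0.37). Their sign depended on the setting in 26 and 20 of 154 values each. Over all refits they ran from -0.70 to 0.25 and from -0.22 to 0.62, with no adjusted p under 0.405. The nearest genes at a 1 CPM minimum shared 5 of 10. No depth limit was met by the 7 genes. Ifng, Cd79a and Ms4a1 were too low for small changes to be seen.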
